A study of Mus musculus with 6 samples.

Results

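The genes beside Irf8 on mouse chromosome 8 were examined in long-term haematopoietic stem cells, to ask whether transcripts encoded near a targeted allele differ between cells labelled knockout and cells labelled wildtype. The set was listed by name and position, and earlier results of these data were known when it was chosen. It leaves out 15 other measured genes between its outermost members, among them Cox4i1 and Fendrr, which adjoin Irf8. It lists 33 genes, of which 32 had a probe set naming that gene alone, among 18193 genes measured in this way. The remaining gene, the amino acid transporter gene Slc38a8, was not analysed here. The wildtype group (Irf8+/+) and the knockout group (Irf8-/-) each held 3 arrays, and no array was left out of a value unless stated. In both groups the cells were sorted from bone marrow as lineage-, c-kit+, Sca-1+, CD48- and CD150+, the labels placed the samples at 3 weeks, and no treatment was given. The labels call the samples biological replicates without naming animals, so the p-values below measure the spread between these samples. The labels used here name neither the targeting construct nor the strain, so the part of Irf8 that was removed and the origin of the flanking chromosome cannot be stated.

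Irf8 encodes an interferon regulatory factor that directs myeloid progenitors towards monocytes and dendritic cells and away from neutrophils. Neighbouring genes are a standard check on a knockout mouse. A selection cassette left in an allele can raise or lower the transcription of genes around it, and an allele made in embryonic stem cells of another strain keeps a stretch of that strain's chromosome on either side after breeding. Irf8 itself lies in a long region with few genes. On its centromeric side come Cox4i1, Emc8 and Gse1, and on its telomeric side come the forkhead genes Foxf1, Foxc2 and Foxl1 with the long noncoding RNA gene Fendrr, which are best known from mesenchyme and blood vessels and not from blood cells.

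Array medians lay between 4.85 and 4.96 on the log2 scale, and 3 arrays per group limit the precision of every value. Among the marker lists of other cells, the means of the neutrophil and the erythroid list did not overlap between the groups, and those of the others did. Of 17 measured neutrophil markers 16 had a difference above 0, and their mean log2 level ran from 6.40 to 7.35 in wildtype and from 8.15 to 10.72 in knockout, highest in knockout replicate 3. The 12 measured stem cell markers averaged 8.29 to 9.15 in wildtype and 7.41 to 9.26 in knockout, with the low value again in knockout replicate 3, and no member of either list passed the adjusted test. Cd48, whose product the sort excluded, read 3.13 to 4.54 in wildtype against 7.60, 9.42 and 3.55 in the 3 knockout arrays. Means of the other marker lists ran in wildtype and knockout from 5.00 to 6.39 and 4.92 to 5.92 for monocytes and dendritic cells, from 5.18 to 5.71 and 4.95 to 5.59 for B cells, and from 4.26 to 4.59 and 4.35 to 4.64 for T cells. They ran from 5.63 to 7.04 and 4.18 to 5.29 for erythroid cells, where 0 of 4 measured markers had a difference above 0. For megakaryocytes they ran from 8.74 to 9.71 and 8.85 to 9.83. Xist read above 10.6 in wildtype replicate 3 and knockout replicate 1, 7.60 in wildtype replicate 1 and 3.34 to 3.81 in the other 3 arrays. The Y-linked gene Eif2s3y read 3.71 and 3.96 in the first 2 of these arrays, 9.95 in wildtype replicate 1 and 7.06 to 8.68 elsewhere. The part of these differences in the values below was not tested, and fewer cells of a type and less RNA per cell cannot be told apart in such samples.

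No gene beside Irf8 passed the test. With limma and Benjamini-Hochberg adjustment over all genes, 0 of 32 neighbours had an adjusted p under 0.05, and the smallest adjusted p among them was 0.887. The same count over all 18193 genes was 0, or 0.0%. At an unadjusted p under 0.05 there were 3 neighbours or 9.38%, namely Gse1, Emc8 and Foxc2, against 880 genes or 4.84% of all. The groups did not overlap for 5 neighbours, or 15.6%, against 10.9% of all genes: 3 were higher in knockout (6.67% of all genes) and 2 were lower (4.25% of all genes). The neighbours' shares were above those of all genes but rest on 3 and 5 genes, and the excess was not tested. The median difference, knockout minus wildtype, was 0.20 over the 32 neighbours and 0.07 over all genes, and 21 neighbours or 65.6% lay above 0 against 56.6% of all genes. The median size of the difference regardless of sign was 0.29 for the neighbours and 0.32 for all genes.

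**Figure D1:**
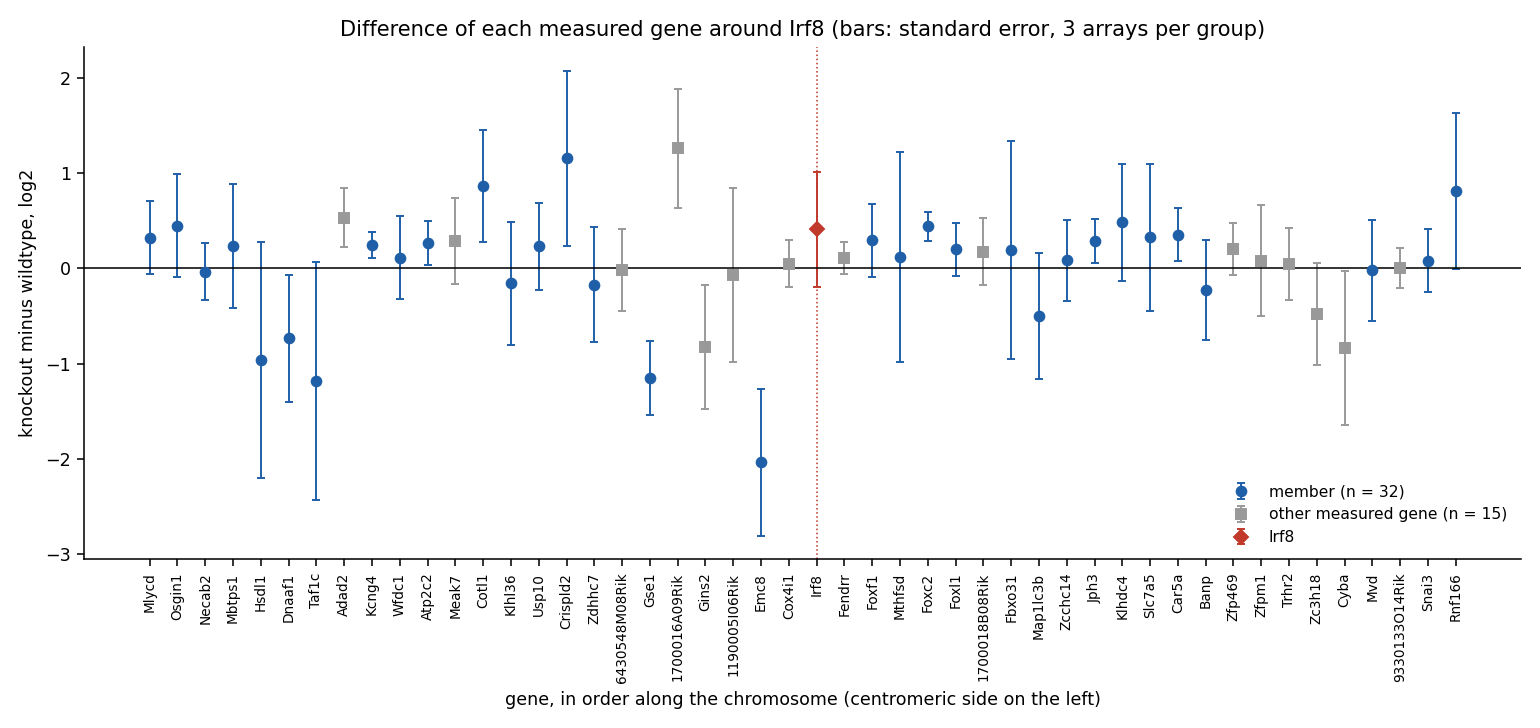
Difference between knockout and wildtype (log2, vertical axis) for each measured gene around Irf8, in order along the chromosome; points are differences of group means over 3 arrays each and bars are standard errors. Emc8 at -2.04 and Gse1 at -1.15, both on the centromeric side, lie furthest below 0 relative to their bars, and most other points lie within their own bars of 0 or near it.

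The targeted gene gave no lower signal in the knockout arrays. The brighter Irf8 probe set read 4.98, 6.43 and 5.16 in wildtype replicates 1, 2 and 3 and 4.91, 6.39 and 6.50 in the knockout replicates. The groups overlapped, with a difference of 0.41 (SE 0.60). The other Irf8 probe set read 4.14, 4.02 and 5.08 in wildtype and 4.61, 5.48 and 3.83 in knockout, a difference of 0.23 (SE 0.51). Knockout replicate 3 was the highest array in the brighter probe set and the lowest in the other. The wildtype means of these 2 probe sets were 5.52 and 4.41, both under the median gene level of 5.81, so a drop could be hard to see. No source used here places the Irf8 probes against the deleted sequence, and the signal is therefore no check of the labels. For the genomic context of the allele, 1 of the 2 RefSeq promoters of Irf8 (300 bases, GRCm38.p6, chr8:120736108-120736407, plus strand) is shown with both matches to TTCNNNGAA in capitals, a palindrome of the kind bound by STAT factors after interferon; the other promoter held 0 matches.
Irf8: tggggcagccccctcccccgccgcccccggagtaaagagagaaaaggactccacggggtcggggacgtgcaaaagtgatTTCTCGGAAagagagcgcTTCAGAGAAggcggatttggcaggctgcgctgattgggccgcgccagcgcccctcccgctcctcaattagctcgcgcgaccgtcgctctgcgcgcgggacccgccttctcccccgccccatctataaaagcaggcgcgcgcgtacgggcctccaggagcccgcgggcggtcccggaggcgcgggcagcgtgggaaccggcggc

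Immediately beside Irf8 the signals of both adjoining genes were nearly level between groups. Cox4i1, the nearest measured gene on the centromeric side and a subunit of cytochrome c oxidase, read 10.70, 10.71 and 10.95 in wildtype and 11.11, 10.63 and 10.78 in knockout, a difference of 0.05 (SE 0.25). Fendrr, the nearest on the telomeric side, read 4.06, 4.11 and 4.08 in wildtype and 4.14, 4.25 and 4.17 in knockout. Its groups did not overlap, but the difference was only 0.11 (SE 0.17). The 95% interval of the Cox4i1 difference ran from -0.54 to 0.64, and that of Fendrr from -0.30 to 0.51. Fendrr stood at percentile 24.3 of gene level. RMA compresses differences of dim probe sets, so its interval does not exclude a 2-fold difference in RNA. Neither gene is among the 32 neighbours.

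Emc8, next beyond Cox4i1, had the lowest difference of all 32 neighbours. It encodes a subunit of the membrane protein complex that inserts proteins into the endoplasmic reticulum. Its brighter probe set read 9.06, 8.45 and 10.75 in wildtype and 7.25, 8.23 and 6.67 in knockout. All 3 knockout arrays lay below all 3 wildtype arrays, by a margin of only 8.23 against 8.45 at the nearest pair. The difference was -2.04 (SE 0.77, 95% interval -3.87 to -0.20, adjusted p = 0.887 in limma). The other Emc8 probe set read 7.48, 6.99 and 5.21 in wildtype and 5.67, 4.85 and 8.48 in knockout, so its groups overlapped and the difference was -0.22 (SE 1.09). In that probe set knockout replicate 3 was the highest array, whereas in the brighter one it was the lowest. Averaged over its probe sets Emc8 differed by -1.13. Without wildtype replicate 3, the highest array in the brighter probe set, that probe set differed by -1.37.

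Gse1 was the other neighbour whose knockout arrays all lay below the wildtype arrays. It encodes a coiled-coil protein of chromatin found with histone deacetylase and demethylase complexes. The brightest of its 3 probe sets read 10.81, 11.26 and 10.07 in wildtype and 9.70, 9.52 and 9.47 in knockout. The knockout arrays were close to each other (SD 0.12) and the wildtype arrays more spread (SD 0.60), and the groups did not overlap. The difference was -1.15 (SE 0.39, 95% interval -2.08 to -0.22, adjusted p = 0.887 in limma). A second probe set overlapped between groups and gave -0.68 (SE 0.41). The third gave 0.92 (SE 0.71), in the opposite direction. Averaged over its 3 probe sets Gse1 differed by -0.30, and without probe sets of a type open to cross-hybridisation, to which the brightest belongs, by -0.68. Without wildtype replicate 2, the highest array in the brightest probe set, that probe set differed by -0.87.

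Between Gse1 and Emc8 lie 3 measured genes that are not among the 32. The noncoding RNA gene 1700016A09Rik had groups without overlap, at 4.70, 5.49 and 4.97 in wildtype and 5.53, 7.67 and 5.74 in knockout, a difference of 1.26 (SE 0.62). Its 95% interval ran from -0.22 to 2.75, and knockout replicate 2 stood well above the other arrays. The other two, Gins2 and 1190005I06Rik, overlapped between groups. Over all 15 such genes between the outermost neighbours, Irf8 not counted, 0 had an unadjusted p under 0.05 in limma, against 4.84% of all genes. Groups did not overlap for 2 of the 15, or 13.3%, against 10.9% of all genes. The median difference was 0.05, against 0.07 over all genes.

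**Figure D2:**
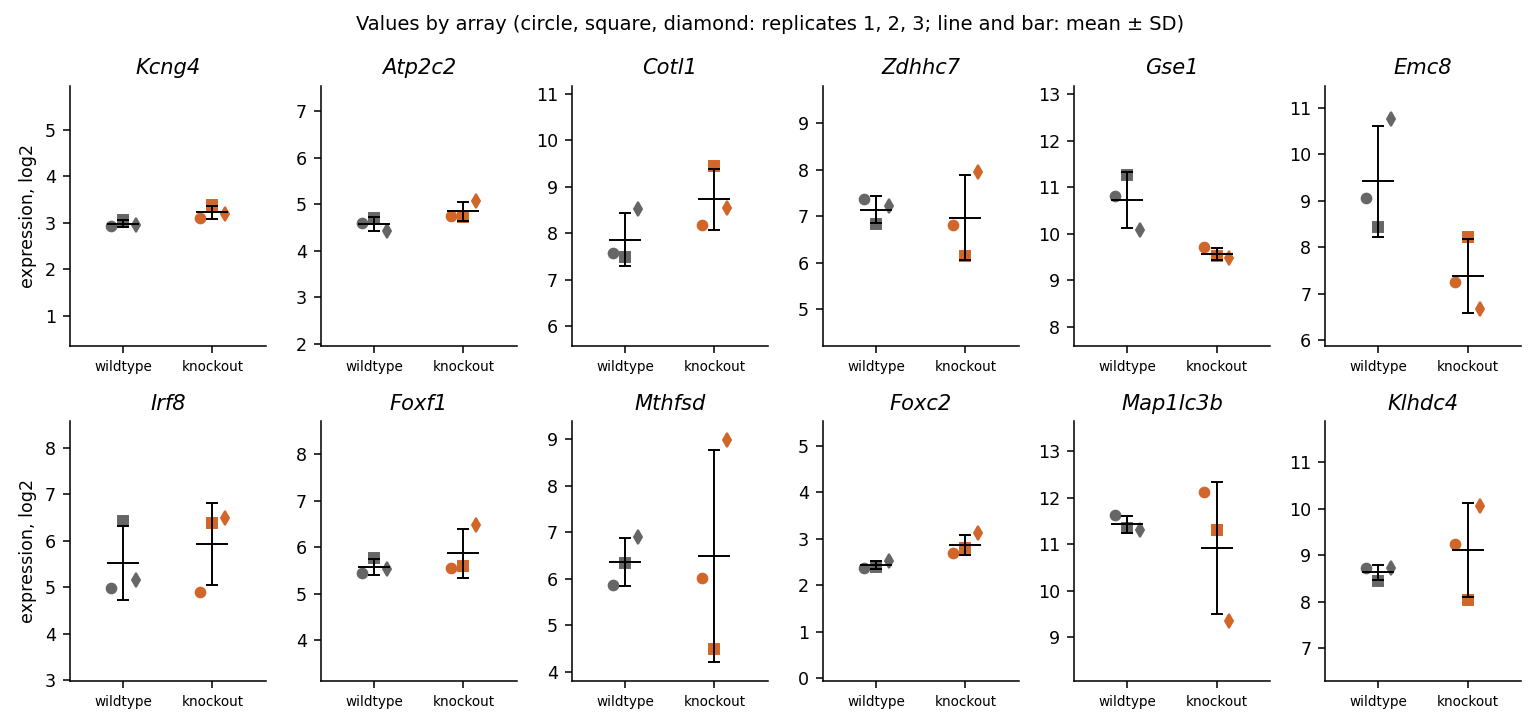
Log2 values in every array for Irf8 and 11 of its neighbours in chromosome order, with each panel's vertical axis spanning at least the same range; grey is wildtype, orange is knockout, and lines with bars are means ± SD of 3 arrays. Gse1 and Emc8 separate by group in the brightest probe set, Foxc2, Kcng4 and Atp2c2 separate by a small step, and the other panels overlap.

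Of the forkhead genes on the telomeric side, Foxc2 and Foxl1 read under the median gene level of 5.81 in all arrays and Foxf1 read near it. Foxc2, a regulator of lymphatic and vascular development, read 2.37, 2.38 and 2.53 in wildtype and 2.70, 2.79 and 3.12 in knockout. All 3 knockout arrays were above the wildtype arrays, with a difference of 0.44 (SE 0.15, 95% interval 0.09 to 0.79, adjusted p = 0.887 in limma). Foxf1, needed for mesenchyme of lung and gut, read 5.44, 5.77 and 5.53 in wildtype and 5.55, 5.59 and 6.48 in knockout. Its groups overlapped and the difference was 0.29 (SE 0.38), while its second probe set gave -0.31 (SE 0.45). Foxl1, a gene of gut mesenchyme, differed by 0.20 (SE 0.28). In the probe set standing for each of these 3 genes the highest array was knockout replicate 3.

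Mthfsd, which lies between Foxf1 and Foxc2 and carries a folate enzyme domain, was widely scattered in the knockout arrays (SD 2.29). It read 5.86, 6.33 and 6.90 in wildtype and 6.01, 4.48 and 8.97 in knockout. The knockout arrays held both the lowest and the highest value, and the difference was 0.12 (SE 1.10). It was -1.12 without knockout replicate 3 and 1.13 without knockout replicate 2.

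Farther along the telomeric side, from Fbxo31 to Rnf166, the groups overlapped in the probe set standing for each neighbour. Map1lc3b, which encodes the autophagosome protein LC3B, had the brightest probe set of the 32 genes, at 11.63, 11.34 and 11.31 in wildtype and 12.12, 11.31 and 9.35 in knockout. The difference of -0.50 (SE 0.66) rested on knockout replicate 3 and was 0.29 without it. All 4 probe sets of Map1lc3b gave a difference below 0, between -0.99 and -0.09. Klhdc4, a kelch domain gene, read 8.73, 8.44 and 8.71 in wildtype and 9.24, 8.03 and 10.06 in knockout, and its difference of 0.48 (SE 0.61) was 0.01 without knockout replicate 3.

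Rnf166, a ubiquitin ligase gene and the outermost, differed by 0.82 (SE 0.82) and by 0.11 without wildtype replicate 3, while its other 2 probe sets gave -0.10 and -0.14. Slc7a5, the transporter of large neutral amino acids, differed by 0.33 (SE 0.77). The mitochondrial carbonic anhydrase gene Car5a differed by 0.35 (SE 0.28). Banp, which encodes a nuclear matrix protein that binds DNA, differed by -0.23 (SE 0.52). Jph3, a junctophilin of excitable cells, differed by 0.29 (SE 0.23). The difference was 0.20 (SE 1.14) for the F-box gene Fbxo31, which read 8.70 in wildtype replicate 2, 8.98 in knockout replicate 1 and 5.75 to 6.08 elsewhere. It was 0.08 (SE 0.42) for the zinc finger gene Zcchc14. Mvd, an enzyme of the mevalonate pathway, stood at -0.02 (SE 0.53), and Snai3, a transcription factor of the Snail family, at 0.08 (SE 0.33). The other Snai3 probe set had groups without overlap, higher in knockout by 0.35 (SE 0.24).

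On the centromeric side beyond Gse1, in the probe sets standing for the genes, the groups did not overlap for Kcng4 and Atp2c2. Kcng4, a modulatory potassium channel subunit, read 2.93, 3.06 and 2.96 in wildtype and 3.11, 3.37 and 3.19 in knockout, a difference of 0.24 (SE 0.14). Atp2c2, a calcium and manganese pump of the secretory pathway, read 4.61, 4.71 and 4.42 in wildtype and 4.74, 4.72 and 5.07 in knockout, a difference of 0.27 (SE 0.23). The nearest arrays of the groups were 0.056 apart for Kcng4 and 0.012 apart for Atp2c2, and both genes read under the median gene level. Neither passed the test (adjusted p = 0.887 in limma for each).

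Cotl1 and Zdhhc7 overlapped between groups. Cotl1, a binder of filamentous actin abundant in myeloid cells, read 7.59, 7.49 and 8.52 in wildtype and 8.19, 9.45 and 8.55 in knockout, with a difference of 0.87 (SE 0.59). All 6 Cotl1 probe sets had a difference above 0, between 0.33 and 1.19. In 5 of them, the brightest not included, the highest array was knockout replicate 3, which was highest for 31.7% of all genes. In 1 of the 6 the groups did not overlap. Knockout replicate 3 also had the highest neutrophil markers, whose part in the Cotl1 values was not tested. Zdhhc7, a palmitoyltransferase gene, read 7.38, 6.83 and 7.23 in wildtype and 6.82, 6.14 and 7.96 in knockout, a difference of -0.17 (SE 0.60).

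Promoters of 21 of the 32 neighbours were found in the RefSeq table (GRCm38.p6), 26 promoters of 300 bases in all. They were searched on both strands for GAAANNGAA, the core of a repeat bound by interferon regulatory factors, for GGAANNGAA, the core of a composite bound by an ETS factor together with such a factor, and for TTCNNNGAA. The cores of the repeat and the composite differ in their second letter, so a site cannot match both in the same frame and strand. The repeat core was found in 1 of the 26 promoters, that of Jph3, and in 8.56% of all 32851 promoters. The composite core was in 1 of the 26 and in 8.24% of all, and the palindrome in 1 of the 26 and in 8.3% of all, both in Zdhhc7. The promoter of Zdhhc7 (chr8:120101423-120101722, minus strand) is shown because it alone held 2 of the motifs; the composite core is in capitals and reads on the opposite strand. Emc8 had no entry in the table.
Zdhhc7: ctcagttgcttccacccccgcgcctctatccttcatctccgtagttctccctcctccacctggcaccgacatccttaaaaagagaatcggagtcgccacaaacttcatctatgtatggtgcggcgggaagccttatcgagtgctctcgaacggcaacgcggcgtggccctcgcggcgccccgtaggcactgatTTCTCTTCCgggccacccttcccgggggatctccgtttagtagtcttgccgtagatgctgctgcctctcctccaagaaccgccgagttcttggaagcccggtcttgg

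The other centromeric genes included the most uneven ones. Crispld2, a secreted protein gene, differed by 1.16 (SE 0.92), the highest difference of the 32. Knockout replicate 1 read 9.49 and the other 5 arrays lay between 5.91 and 6.66. Without that array the difference was 0.11, and its other 2 probe sets gave -0.09 and -0.11. Taf1c, a subunit of the RNA polymerase I selectivity factor, read 4.14 in knockout replicate 3 and between 7.82 and 8.68 elsewhere, and its difference of -1.18 (SE 1.25) was 0.32 without that array. Dnaaf1, a gene for assembly of ciliary dynein arms, differed by -0.73 (SE 0.67), and by -0.11 without knockout replicate 3. Hsdl1, a dehydrogenase-like gene, read 7.21, 6.77 and 8.13 in wildtype and 4.02, 6.14 and 9.08 in knockout. Its difference of -0.96 (SE 1.24) was -2.29 without knockout replicate 3 and 0.24 without knockout replicate 1.

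Mbtps1, the protease that activates SREBP factors, differed by 0.24 (SE 0.65) in its brightest probe set and by -1.42 (SE 0.77) and -1.17 (SE 1.19) in the other 2. In the probe set at -1.42 the groups did not overlap, at 7.98, 8.03 and 8.27 in wildtype and 7.07, 5.11 and 7.84 in knockout. The other 6 centromeric genes had 1 probe set each, with groups that overlapped, and differed by 0.45 or less in size. Osgin1, a growth inhibitor gene induced by oxidative stress, differed by 0.45 (SE 0.54), and Mlycd, malonyl-CoA decarboxylase, by 0.32 (SE 0.38). The deubiquitinase gene Usp10 differed by 0.23 (SE 0.46) and the kelch gene Klhl36 by -0.16 (SE 0.65). The protease inhibitor gene Wfdc1 differed by 0.11 (SE 0.43) and the neuronal calcium-binding protein gene Necab2 by -0.03 (SE 0.30).

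Several neighbours had probe sets that disagreed with each other. Of the 32 genes 16 had more than 1 probe set, and in 8 of these the probe sets differed in sign. Over all 60 probe sets of the neighbours 8 had groups without overlap, or 13.3%, against 10.9% of all single-gene probe sets. Emc8 and Gse1, the genes with the smallest p-values among the brighter signals, each had 1 probe set with non-overlapping groups and at least 1 without.

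**Figure D3:**
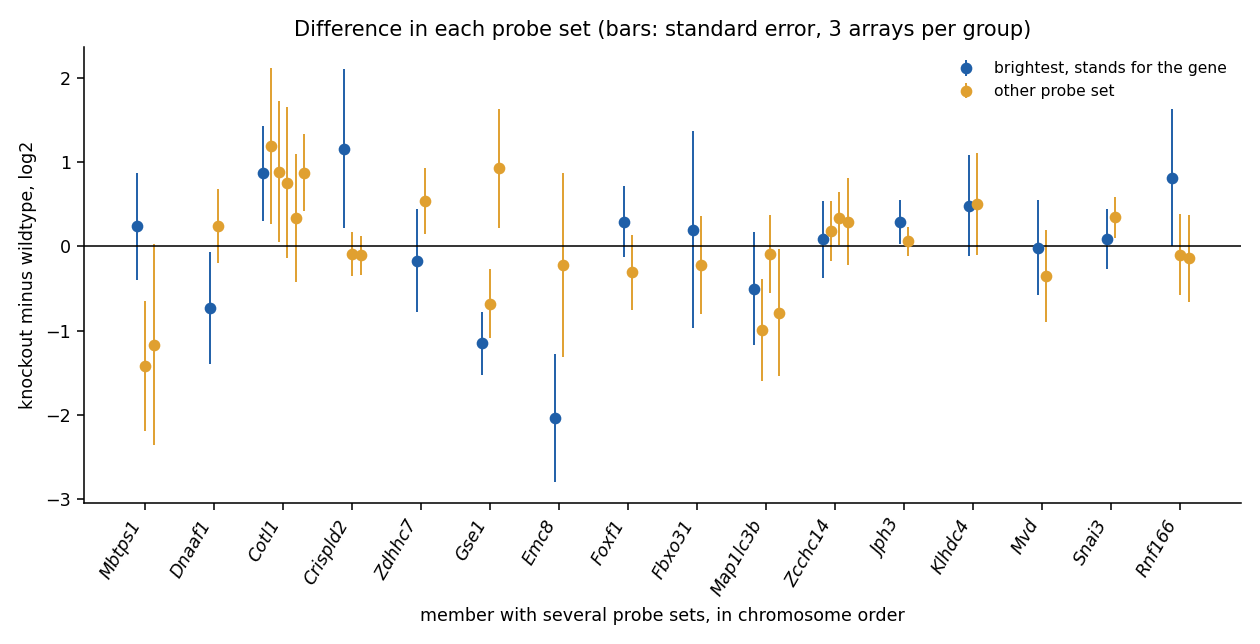
Difference between knockout and wildtype (log2) in each probe set of the 16 neighbours with more than 1, in chromosome order; blue marks the brightest probe set, which stands for the gene, and bars are standard errors over 3 arrays per group. The 6 probe sets of Cotl1, all of a type open to cross-hybridisation, and the 4 of Map1lc3b each keep 1 sign. Those of Gse1, Mbtps1, Crispld2 and 5 other genes fall on both sides of 0.

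The size of the differences was then set against order along the chromosome, in steps over measured genes from Irf8. Across the 32 neighbours the size of the difference and the number of steps from Irf8 had a Spearman rho of -0.08, given as a description since the genes share the same 6 arrays, and 0.08 over the other 30 without Emc8 and Gse1. The 10 nearest neighbours, within 9 steps, had a median size of 0.37 and the other 22 had 0.28. Groups did not overlap for 3 of the 10, Emc8, Gse1 and Foxc2, and for 2 of the 22, Kcng4 and Atp2c2, against 10.9% of all genes. An unadjusted p under 0.05 in limma was found for the same 3 of the 10 and for 0 of the 22, against 4.84% of all genes. Differences larger than 1 in either direction were found in 3 of the 10 and 1 of the 22, against 14.8% of all genes. The contrast between near and far neighbours was not tested. The order of the median sizes turned without probe sets of a type open to cross-hybridisation, where the nearest minus the others was -0.09 in place of 0.09. It also turned with a term for the 3 arrays above the midpoint of Xist, at -0.04.

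Counts were also taken on each side of Irf8, and the difference between sides was not tested. On the centromeric side 9 of 17 genes lay above 0 with a median of 0.11, and 4 had groups without overlap. On the telomeric side 12 of 15 lay above 0 with a median of 0.20, and 1 had groups without overlap. Over all genes 56.6% lay above 0 and 10.9% had groups without overlap. Differences larger than 1 on the log2 scale in either direction were found in 4 centromeric genes, Emc8, Taf1c, Crispld2 and Gse1, and in 0 telomeric genes, together 12.5% of the 32 against 14.8% of all genes. The sides also differed in level, with 14 of 17 centromeric and 8 of 15 telomeric genes above the median gene level. Of all genes above that level 22.4% differed by more than 1, and 4282 of 9096 lay above 0. At or below it the values were 7.29% and 6011 of 9097. Without knockout replicate 3 the telomeric median was 0.13 with 9 of 15 above 0 and the centromeric median was 0.0042 with 9 of 17 above 0.

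Knockout replicate 3 stood apart among the neighbours. It held the highest value for 16 of the 32 genes, or 50%, against 31.7% of all genes. On the telomeric side it held the highest value for 9 of 15 genes and on the centromeric side for 7 of 17. The median deviation from a gene's mean over 6 arrays was 0.31 there for the neighbours and 0.12 for all genes, and between -0.13 and -0.03 in the other 5 arrays for the neighbours. The SD was larger in knockout than in wildtype for 24 of the 32 genes, or 75%, against 60.8% of all genes. Without this array the median difference over the neighbours was 0.07 in place of 0.20, and over all genes 0.0027. It was also the array with the highest neutrophil and lowest stem cell marker levels, whose part in these values was not tested.

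**Figure D4:**
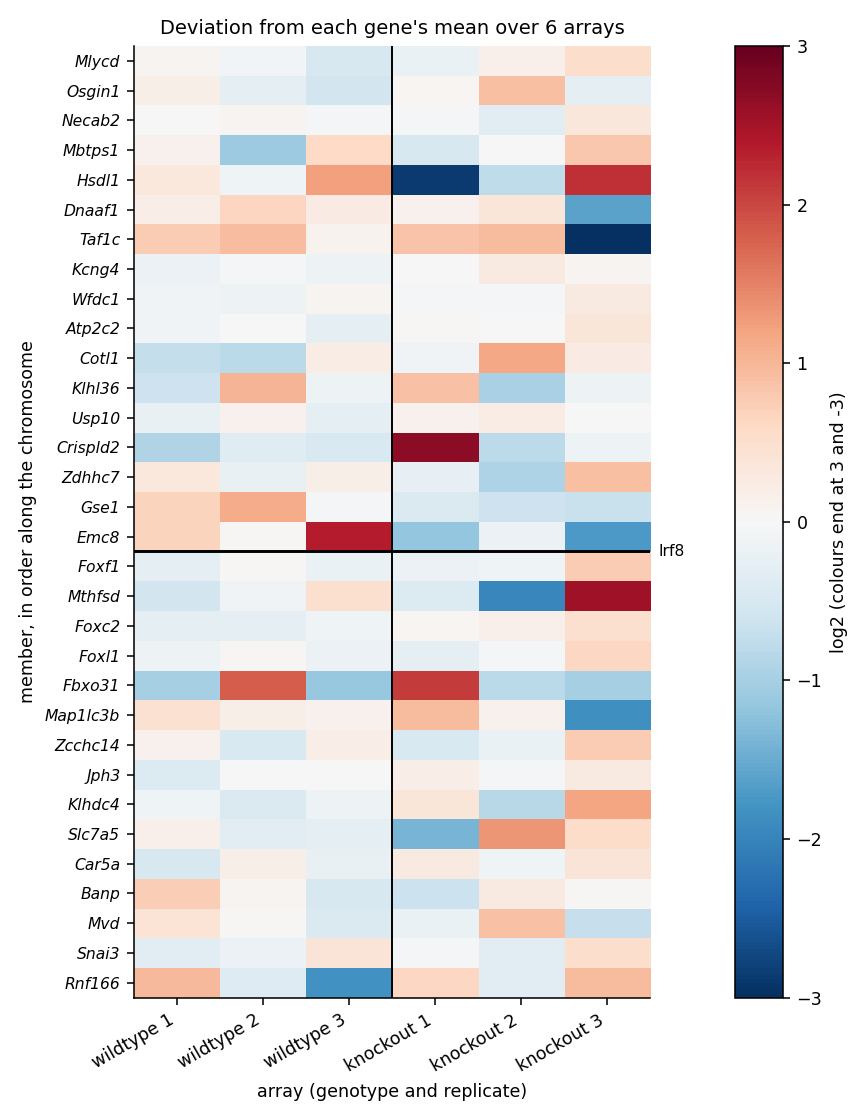
Deviation of each neighbour from its own mean over 6 arrays (log2, colour) by array, with genes in chromosome order and Irf8's place marked by the horizontal line. Dark cells are scattered over single genes and arrays, and the column of knockout replicate 3 holds the highest value for 16 of 32 genes.

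The size of the difference was also set against signal level. Its Spearman rho with mean level was 0.50 over the 32 neighbours and 0.33 over all genes, again a description across genes and not across replicates. Of the 22 neighbours above the median gene level 2 had groups without overlap, or 9.09%, against 11.2% of all genes above it. These were Emc8 and Gse1, both lower, and among all such genes 573 were lower and 445 higher. Of the 10 neighbours at or below the median level 3 had groups without overlap, against 10.7% of all genes there. These were Foxc2, Kcng4 and Atp2c2, all higher, and among all such genes 769 were higher and 201 lower. Of these 10 neighbours 9 lay above 0, against 66.1% of all genes at or below the median level. Levels of different probe sets are not on a common scale of RNA amount, and the level serves here only to show how much signal a probe set gave.

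**Figure D5:**
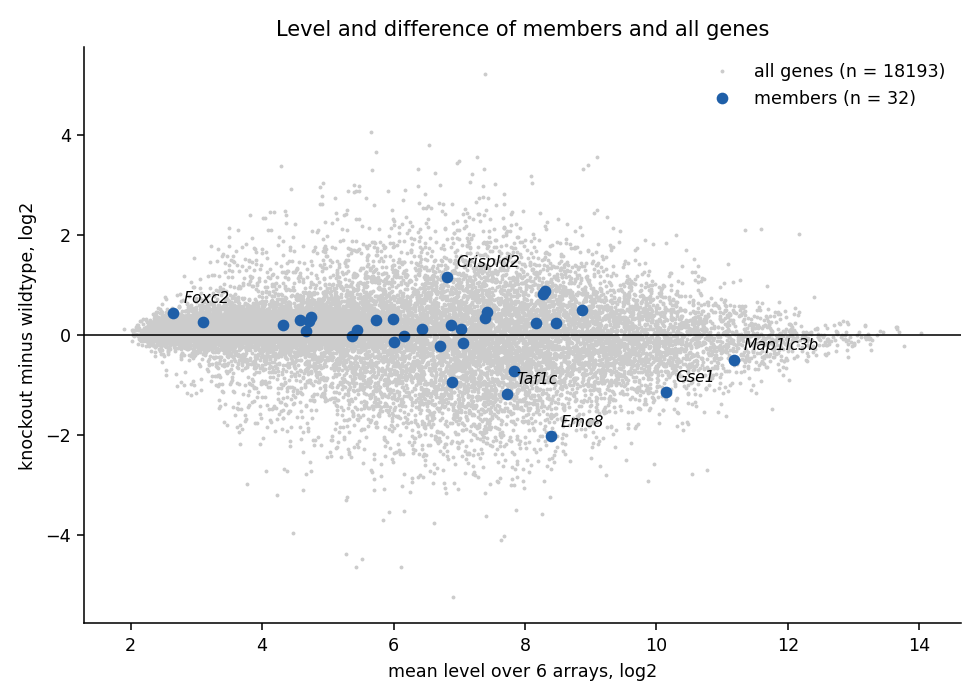
Difference between knockout and wildtype (log2, vertical axis) against mean level over 6 arrays (log2, horizontal axis) for 32 neighbours of Irf8 in blue and all 18193 genes in grey. The neighbours lie within the cloud of all genes, with Emc8 at -2.04 and Gse1 at -1.15 towards its lower edge.

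The intervals set what these arrays could show near Irf8. The 95% interval of a neighbour's difference had a median half-width of 1.28 on the log2 scale, from 0.33 to 2.98. It lay wholly between -1 and 1, which is 2-fold in either direction, for 7 genes: Necab2, Kcng4, Atp2c2, Foxc2, Foxl1, Jph3 and Snai3, all with signals under the median gene level. Foxc2 and Kcng4 stood at percentiles 3.7 and 9.3 of gene level, and the others between 27.0 and 43.6. RMA compresses differences of dim probe sets, so the intervals of these 7 do not exclude a 2-fold difference in RNA. For the other 25, Emc8, Gse1 and Map1lc3b among them, a 2-fold difference in at least one direction lay within the interval. The number of neighbours with an unadjusted p under 0.05 was 3 over all arrays, 0 without wildtype replicate 1, 1 without wildtype replicate 2, and 1 with a term for the 3 arrays above the midpoint of Xist, wildtype replicate 1 included. It was 3 with a term for the 2 arrays that read low for Eif2s3y, wildtype replicate 3 and knockout replicate 1. Over all genes the counts were 714 without wildtype replicate 2, 886 with the Xist term and 897 with the Eif2s3y term. Without wildtype replicate 1 the differences were -2.22 for Emc8, -1.10 for Gse1 and 0.41 for Foxc2, near those over all arrays, and 689 of all genes had an unadjusted p under 0.05 in place of 880. Other arrays mattered more. Over the leave-outs of each array Emc8 ran from -2.52 to -1.37, Gse1 from -1.47 to -0.87 and Foxc2 from 0.32 to 0.53.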

How the data were processed

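RNA of sorted stem cells from 3 wildtype and 3 knockout samples was amplified and hybridised to Affymetrix arrays, per the labels' protocols. The authors deposited log2 expression values for 45037 probe sets; the submitters' processing notes list RMA, Partek and Affymetrix Expression Console but no versions. RMA compresses differences of dim probe sets. Probe sets naming 1 gene (34945) were kept, those naming several (932) or unnamed (9160) were left out, and the probe set with the highest mean stood for a gene. Gene order came from RefSeq (GRCm38.p6). The groups were compared with limma 3.58.1 in R 4.3.3, using a mean-variance trend and Benjamini-Hochberg adjustment over 18193 genes. In simulated data on these genes, with a random set changed by 2-fold to 16-fold, the fit called 5.8% of 2-fold, 33.2% of 4-fold and 67.6% of 16-fold changes. It made 3.7 false calls per run. Such rates depend on how many genes change, and the real data had 0 genes called, so they are not rates for the neighbours. The members, marker lists and tests were chosen with earlier results of these data known. Values by array are given for Irf8, the 3 nearest neighbours on each side, those without overlap, the 5 smallest p-values and the 3 brightest; other genes in the region are named where adjacent to Irf8 or without overlap. Alternatives covered moderation, array weights, probe set choice, a level filter, scaling, a replicate block and leaving out each array; terms for the Xist and the Eif2s3y pattern, each coded at the midpoint of that gene's range, were added after the data were seen. Standard errors of a gene's other probe sets came from the same fit over all 34945 probe sets. Figures were drawn with matplotlib 3.10.9 under Python 3.11.15, from tables made with numpy 2.4.6 and pandas 2.3.3.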

Additional observations from a re-analysis of the deposited data

How the results depend on the processing

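Over 16 alternatives the number of neighbours with an adjusted p under 0.05 in limma was 0 in each, and the median over the neighbours stayed above 0, from 0.07 without knockout replicate 3 to 0.26 without wildtype replicate 2. The number at an unadjusted p under 0.05 ran from 0 to 3 when an array was left out and was 1 with the term for the Xist pattern, which took in wildtype replicate 1, and 3 with that for the Eif2s3y pattern, which did not. Over all 18193 genes the count ran from 689 to 1204 when an array was left out and was 886 and 897 with the 2 terms. Neighbours whose groups did not overlap numbered 2 among genes above the median level, or 9.09%, against 11.2% of all such genes. After quantile normalization they numbered 3, or 9.38%, a share also below that of all genes. They numbered 7 to 10 when an array was left out, where 19.0% to 24.1% of all genes did not overlap. The neighbours' share was above that of all genes in each of these leave-outs. The median size of the 10 nearest minus that of the others was -0.090 without probe sets open to cross-hybridisation and -0.040 with the term for the Xist pattern. It ran from 0.0046 to 0.46 when an array was left out, and the cause was not tested. Of 512 single-gene values 39 changed sign, with no unadjusted p under 0.05 before or after. Replicate numbers did not pair the arrays, since deviations of same-numbered arrays correlated at -0.024, -0.0093 and -0.011. With the replicate block 2 neighbours and 838 of all genes had an unadjusted p under 0.05, and 0 neighbours had an adjusted one. These values rest on 3 arrays per group, and 10 of the 32 signals lay at or under the median gene level.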
